A study of Homo sapiens with 6 samples.

Results

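The 10 genes described here encode the transcription factors E2F1 to E2F8 and RBL1 and RBL2, which encode the pocket proteins p107 and p130. They were taken by gene name from a table of 58735 genes. RNA was sequenced from 3 samples of KYSE410 with a knockdown of ADAR1 (siADAR1), an enzyme that edits adenosines to inosines within double-stranded RNA, and from 3 control samples of KYSE410, labelled NC and wild type. KYSE410 is a line of human oesophageal squamous cell carcinoma cells, and all samples were grown in RPMI with serum and carry the same batch value. No label gives the time after knockdown, the number of siRNAs or whether the controls received a siRNA, so effects of delivery and off-target effects cannot be told apart from loss of ADAR1. No label says that samples came from separate cultures, so a p-value here reflects the spread among these 6 samples alone, and that spread may be technical.

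E2F proteins bind short DNA sites in the promoters of genes for DNA replication and the cell cycle. E2F1, E2F2 and E2F3 are classed as activators. E2F4 and E2F5 repress mainly in complexes with the pocket proteins p107 and p130, E2F6 represses without pocket proteins, together with Polycomb proteins, and the atypical members E2F7 and E2F8 repress without a DP partner. Cyclin-dependent kinases phosphorylate pocket proteins in G1 and so free the E2F proteins bound to them. Several E2F genes and RBL1 are themselves known E2F targets.

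The library totals were 15175619 to 16903792 counts in siADAR1 and 15497788 to 17329443 in control. ADAR, the knockdown target, averaged 88.7 ± 9.72 CPM (counts-per-million) in siADAR1 and 444 ± 12.1 CPM in control (SD, n = 3 each), with a log2 fold change of -2.32 ± 0.09 (SE) and an edgeR adjusted p of 1.06e-08. Of 15294 genes with enough counts to test, 51.0% passed an adjusted p of 0.05, 26.0% higher and 25.0% lower in siADAR1. With library totals alone in place of TMM scaling the split was 32.0% higher and 18.9% lower. Replicate 1 stood apart from the other 2 libraries of its group on principal components of all tested genes. On the first component it lay at -60.5 against -41 and -40.9 in siADAR1. In control it did not stand apart there, at 47.9 against 49 and 45.4. On the second it lay at 15 against -8.07 and -10 in siADAR1 and at 36.1 against -19.6 and -13.3 in control. Both libraries numbered 1 thus deviated in the same direction on the second component. Of 7 epithelial markers 6 were tested, and 3 fell, 2 rose and 1 missed the threshold (median -0.39 on the log2 scale). TP63 and DSG3 rose, at 0.48 and 1.54 on the log2 scale, and SFN, KRT5 and KRT6A had log2 fold changes of -0.68, -0.54 and -2.24. KRT14, a basal squamous keratin, had at most 2 counts in any library. Of 9 markers of leukocytes, endothelium and fibroblasts, COL1A1 alone had enough counts to test, and it rose in siADAR1 (log2 fold change 0.44 ± 0.17, SE, edgeR adjusted p = 0.041). The summed level of the 9 markers was 20.5 to 25.9 CPM in siADAR1 libraries and 12.9 to 20.1 CPM in control libraries. CD3E, CD68 and DCN had 0 counts in at least 5 of 6 libraries. The part of such cells in the results below was not tested.

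The promoters of 5 members are shown first: the 4 in which an E2F site was found, and that of E2F7, the single member that rose. The windows run from 250 bases before to 50 bases after a RefSeq transcript start (GRCh38.p14) and are written 5′ to 3′ on the strand of the gene. They lie at chr20:33686336-33686635 (minus strand) for E2F1, chr1:23531184-23531483 (minus strand) for E2F2, chr6:20401629-20401928 (plus strand) for E2F3, chr20:37095948-37096247 (minus strand) for RBL1 and chr12:77065520-77065819 (minus strand) for E2F7. Capitals mark matches to the E2F site, searched on both strands as TTTCCCGC, TTTCGCGC, TTTGCCGC or TTTGGCGC.
E2F1: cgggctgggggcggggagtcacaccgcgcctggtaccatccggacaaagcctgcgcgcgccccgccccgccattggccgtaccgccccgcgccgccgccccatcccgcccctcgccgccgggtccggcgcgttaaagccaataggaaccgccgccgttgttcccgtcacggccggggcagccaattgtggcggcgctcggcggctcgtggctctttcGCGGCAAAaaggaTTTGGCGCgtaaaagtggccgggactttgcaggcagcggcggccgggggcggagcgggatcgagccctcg
E2F2: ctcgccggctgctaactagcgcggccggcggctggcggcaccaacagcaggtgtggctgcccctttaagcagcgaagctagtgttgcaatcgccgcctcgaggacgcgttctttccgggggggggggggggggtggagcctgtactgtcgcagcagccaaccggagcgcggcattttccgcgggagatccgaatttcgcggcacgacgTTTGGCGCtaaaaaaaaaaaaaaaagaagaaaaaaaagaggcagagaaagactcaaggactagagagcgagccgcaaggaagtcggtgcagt
E2F3: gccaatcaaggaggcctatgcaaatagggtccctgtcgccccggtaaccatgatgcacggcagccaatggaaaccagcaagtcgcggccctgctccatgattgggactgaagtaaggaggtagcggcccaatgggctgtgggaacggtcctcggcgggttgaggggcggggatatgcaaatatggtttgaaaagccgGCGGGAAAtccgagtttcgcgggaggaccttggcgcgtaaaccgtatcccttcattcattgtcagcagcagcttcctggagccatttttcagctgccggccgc
RBL1: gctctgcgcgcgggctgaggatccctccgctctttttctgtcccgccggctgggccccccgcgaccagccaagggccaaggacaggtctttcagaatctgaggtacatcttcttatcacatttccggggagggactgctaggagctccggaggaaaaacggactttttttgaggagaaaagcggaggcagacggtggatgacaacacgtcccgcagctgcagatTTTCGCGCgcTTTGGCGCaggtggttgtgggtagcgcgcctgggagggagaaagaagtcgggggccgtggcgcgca
E2F7: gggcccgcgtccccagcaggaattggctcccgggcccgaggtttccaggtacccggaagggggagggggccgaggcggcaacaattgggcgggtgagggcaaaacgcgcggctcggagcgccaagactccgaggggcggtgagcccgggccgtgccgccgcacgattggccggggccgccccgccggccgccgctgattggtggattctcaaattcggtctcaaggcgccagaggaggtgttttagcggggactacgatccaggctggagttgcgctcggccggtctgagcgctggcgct

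The E2F1 window held 2 matches, at 33 and 20 bases before the start, and the RBL1 window held 2, at 26 and 16 bases before it. The E2F2 window held 1 match, at 42 bases before the start. The E2F3 window shown held 1, at 53 bases before it, and its second window held 0. No match was present in the windows of E2F4, E2F6, E2F7 or RBL2, so 4 of the 8 members found in the promoter table had a match. E2F5 and E2F8 were not among these 8. Over all 35116 promoter windows of this length, 3.31% held a match. This share is per window, whereas the count of 4 of 8 is per gene, and these genes had 10 windows. The CHR, an element bound by the MuvB complex and searched on both strands as TTTGAA, was present in 15.2% of all windows and among these members in the first E2F3 window and in 1 of 2 RBL2 windows. A match describes letters in a window and not binding, and its absence says nothing about a factor.

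Among the activators, E2F2 and E2F3 fell and E2F1 did not pass the test. E2F2 (ENSG00000007968, chromosome 1, 23506430 to 23531220) had 6.71, 7.89 and 8.01 CPM in siADAR1, against 25.2, 20.9 and 25.3 CPM in control. Every siADAR1 library lay below every control library, at 31.6% of control, with a log2 fold change of -1.66 ± 0.15 (SE) and an edgeR adjusted p of 2.26e-06. E2F2 was the lowest member in siADAR1 by FPKM (fragments per kilobase per-million, which allows levels to be set side by side between genes), at 1.36 ± 0.129 FPKM, whereas in control it stood at 4.32 ± 0.449 FPKM (SD, n = 3 each).

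E2F3 (ENSG00000112242, chromosome 6, 20401906 to 20493715), which encodes an activator isoform and a shorter isoform that gene counts do not separate, had 55.7, 65 and 73.2 CPM in siADAR1, against 138, 146 and 141 CPM in control. The groups did not overlap, and siADAR1 stood at 45.6% of control. E2F3 gave a log2 fold change of -1.13 ± 0.10 (SE) and an edgeR adjusted p of 2.67e-06. Genes and pseudogenes that overlap or resemble E2F3 had at most 7 counts in any library, while E2F3 had 987 to 1152 in siADAR1 and 2139 to 2286 in control.

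E2F1 (ENSG00000101412, chromosome 20, 33675683 to 33686404), the activator that also induces apoptosis genes when in excess, had 26.2, 33.7 and 36.6 CPM in siADAR1, against 42.5, 39.7 and 36.5 CPM in control. The groups touched, since siADAR1 replicate 3 lay just above control replicate 3, and siADAR1 replicate 1 was the lowest library. E2F1 gave a log2 fold change of -0.30 ± 0.13 (SE) and an edgeR adjusted p of 0.0711. Without both libraries numbered 1 it was -0.118, and without siADAR1 replicate 3 it was -0.396 with an adjusted p of 0.0429. The adjusted p over all alternatives ran between 0.0334 and 0.341. Whether the change of E2F1 differed from those of E2F2 and E2F3 was not tested.

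**Figure D1:**
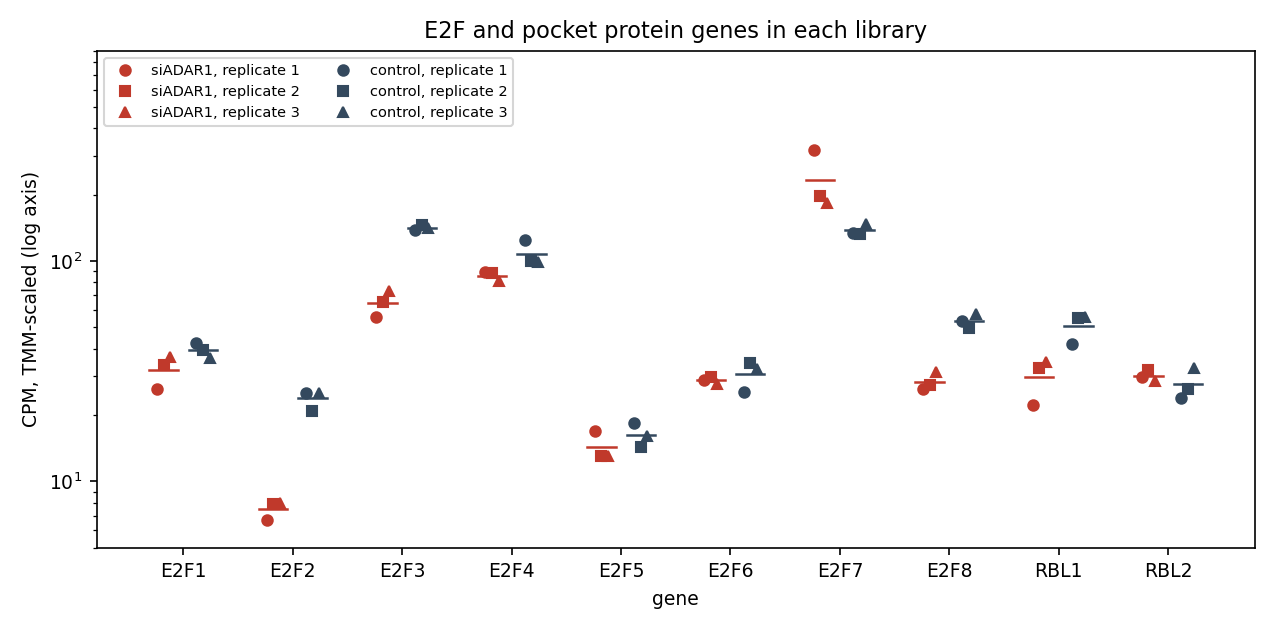
Level of each member in each library, as CPM on TMM-scaled library sizes (log axis), with siADAR1 libraries in red left of control libraries in dark blue, symbols for replicates and bars for group means. E2F2, E2F3, E2F4, E2F8 and RBL1 lie lower in every siADAR1 library, E2F7 lies higher, and the other 4 members overlap.

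Of the canonical repressor genes, E2F4 fell and E2F5 did not pass the test. E2F4 (ENSG00000205250, chromosome 16, 67192169 to 67198918), the main partner of p130 in resting cells, had 88.9, 88 and 81.1 CPM in siADAR1, against 125, 100 and 99.3 CPM in control. The groups did not overlap, but control replicate 1 stood well above the other controls. E2F4 fell by 0.33 on the log2 scale (SE 0.10, edgeR adjusted p = 0.0176). This call was lost with library totals alone (log2 fold change -0.212, adjusted p = 0.106) and without siADAR1 replicate 3 (-0.281, adjusted p = 0.0814), within a range over all alternatives of 0.00443 to 0.106. E2F5 (ENSG00000133740, chromosome 8, 85177225 to 85217158), the other partner of the pocket proteins in repression, had 16.9, 13.1 and 13 CPM in siADAR1, against 18.4, 14.3 and 16 CPM in control. Its groups overlapped, with a log2 fold change of -0.18 ± 0.16 (SE) and an edgeR adjusted p of 0.369. E2F5 shares 3083 bases with C8orf59 on the opposite strand, which had 61 to 87 counts in siADAR1 and 70 to 119 in control, and no strand-marking step is named.

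E2F6 (ENSG00000169016, chromosome 2, 11444375 to 11466177), the repressor that works with Polycomb proteins, did not pass the test. It had 28.9, 29.7 and 27.7 CPM in siADAR1, against 25.5, 34.5 and 32.5 CPM in control, with siADAR1 inside the control range. E2F6 gave a log2 fold change of -0.10 ± 0.13 (SE) and an edgeR adjusted p of 0.54, and its log2 fold change turned to 0.0183 with library totals alone.

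The atypical repressor genes moved in opposite directions. E2F7 (ENSG00000165891, chromosome 12, 77021247 to 77065580) was the single member that rose. It had 318, 197 and 184 CPM in siADAR1, against 134, 132 and 147 CPM in control. All siADAR1 libraries lay above all controls, and siADAR1 replicate 1 lay far above the other 2. E2F7 was 1.69-fold higher, a log2 fold change of 0.76 ± 0.20 (SE), and had an edgeR adjusted p of 0.0128. Without siADAR1 replicate 1 the log2 fold change was 0.468 (adjusted p = 0.000984), and without both libraries numbered 1 it was 0.446 (adjusted p = 1.98e-06). Without control replicate 1 it was 0.727 and the call was lost, at an adjusted p of 0.0722, the highest of a range over all alternatives of 1.59e-10 to 0.0722.

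E2F8 (ENSG00000129173, chromosome 11, 19224063 to 19241620), the other atypical repressor, had 26.3, 27.5 and 31.3 CPM in siADAR1, against 53.4, 49.9 and 57.8 CPM in control. The groups lay wide apart, with siADAR1 at 52.9% of control. E2F8 gave a log2 fold change of -0.92 ± 0.11 (SE) and an edgeR adjusted p of 2.09e-05. An antisense gene that covers all of E2F8 had 0 counts in siADAR1 and at most 11 in control.

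Among the pocket protein genes RBL1 fell and RBL2 did not pass the test. RBL1 (ENSG00000080839, chromosome 20, 36996349 to 37095995), whose p107 accumulates in cycling cells, had 22.2, 32.6 and 35 CPM in siADAR1, against 42.2, 55 and 55.6 CPM in control. The groups did not overlap, and replicate 1 was the lowest library in each. RBL1 gave a log2 fold change of -0.77 ± 0.16 (SE) and an edgeR adjusted p of 0.00201. RBL2 (ENSG00000103479, chromosome 16, 53433977 to 53491649), whose p130 is most abundant in resting cells, had 29.7, 32 and 28.7 CPM in siADAR1, against 24, 26.4 and 32.6 CPM in control. Control replicate 3 lay above all siADAR1 libraries, and RBL2 gave a log2 fold change of 0.12 ± 0.13 (SE) and an edgeR adjusted p of 0.45. RBL2 shares 610 bases with AKTIP on the opposite strand, which had 649 to 996 counts in siADAR1 and 311 to 364 in control, and its part in the RBL2 value was not tested. The ratio of RBL1 to RBL2 FPKM was 0.919, 1.25 and 1.5 in siADAR1, against 2.16, 2.56 and 2.1 in control, so p107 transcripts stood closer to p130 transcripts in every siADAR1 library.

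**Figure D2:**
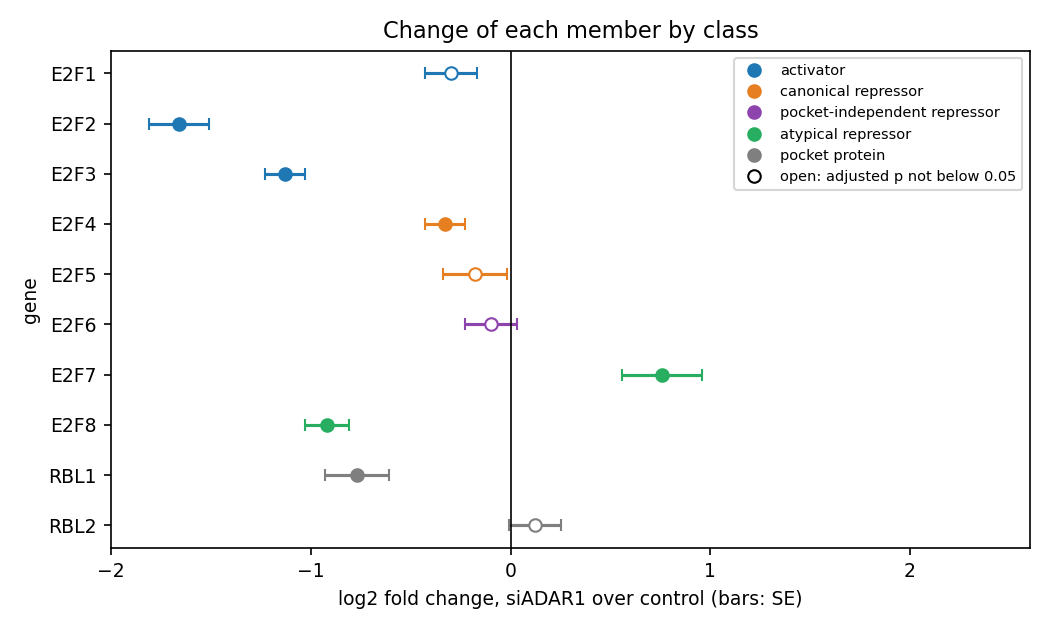
Log2 fold change of each member, siADAR1 over control, with its SE as bars and the class of the gene as colour, filled where the edgeR adjusted p is below 0.05. Values run between -1.66 for E2F2 and 0.76 for E2F7, and the atypical repressors E2F7 and E2F8 lie on opposite sides of 0.

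In all, 6 of 10 members passed the test, beside 51.0% of all tested genes. Of these 5 fell, beside 25.0% of all tested genes, and 1 rose, beside 26.0%. With library totals alone 4 fell, beside 18.9%, and 1 rose, beside 32.0%. The total called is thus near the background, and the members were chosen with results of these data known. E2F2 and E2F3 fell at least 2-fold, a change called for 4.94% of tested genes. The CPM ranges of the groups did not overlap for 6 members, beside 60.3% of tested genes. The median log2 fold change was -0.32 over the members and 0.00469 over all tested genes. Of the 4 members with an E2F site match in a printed window, E2F2, E2F3 and RBL1 fell and E2F1 did not pass. Of the 4 with a window and no match, E2F4 fell, E2F7 rose and E2F6 and RBL2 did not pass.

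The mean of the activators fell relative to that of the repressors in each siADAR1 library. All 3 activators had negative log2 fold changes, of -1.66 for E2F2, -1.13 for E2F3 and -0.30 for E2F1, but E2F1 did not pass. The repressor E2F8, at -0.92, fell further than E2F1. Each gene has the same weight in these means, whatever its level. The mean log2 CPM of E2F1 to E2F3 was 4.42, 4.69 and 4.8 in siADAR1 libraries, against 5.72, 5.63 and 5.66 in control libraries. That of the 5 repressors E2F4 to E2F8 was 5.69, 5.49 and 5.46 in siADAR1, against 5.73, 5.65 and 5.74 in control. Activators minus repressors thus came to -0.91 ± 0.32 in siADAR1 and -0.04 ± 0.04 in control (SD, n = 3 each), a difference of -0.88 on the log2 scale. The groups did not overlap, and siADAR1 replicate 1 was lowest, at -1.27 against -0.8 and -0.67. Without E2F7 among the repressors the difference was -0.66. No test is given for these class means, whose members were chosen with results known. Being a ratio within each library, this contrast was -0.88 with TMM and with library totals alone.

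E2F7 made up a larger part of the E2F transcripts in siADAR1, and E2F3 a smaller part. E2F7 took 44.2, 31.4 and 29.6% of the summed E2F1 to E2F8 FPKM in siADAR1, against 16.8, 17.5 and 19.2% in control. E2F3 took 9.45, 12.7 and 14.4% in siADAR1, against 21.1, 23.6 and 22.3% in control. The share of the 3 activators was 26 ± 5.67% in siADAR1 and 38.7 ± 1.15% in control (SD, n = 3 each), and that of E2F4 and E2F5 was 25.5 ± 1.35% in siADAR1 and 26.7 ± 2.82% in control. E2F1 had a share of 12.5 ± 2.96% in siADAR1 beside 12.9 ± 0.808% in control. The summed FPKM of the family was 103 ± 8.67 in siADAR1 and 122 ± 3.38 in control. These shares sum to the whole in each library, so a larger share of E2F7 lowers the others by construction, and no test is given for them.

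**Figure D3:**
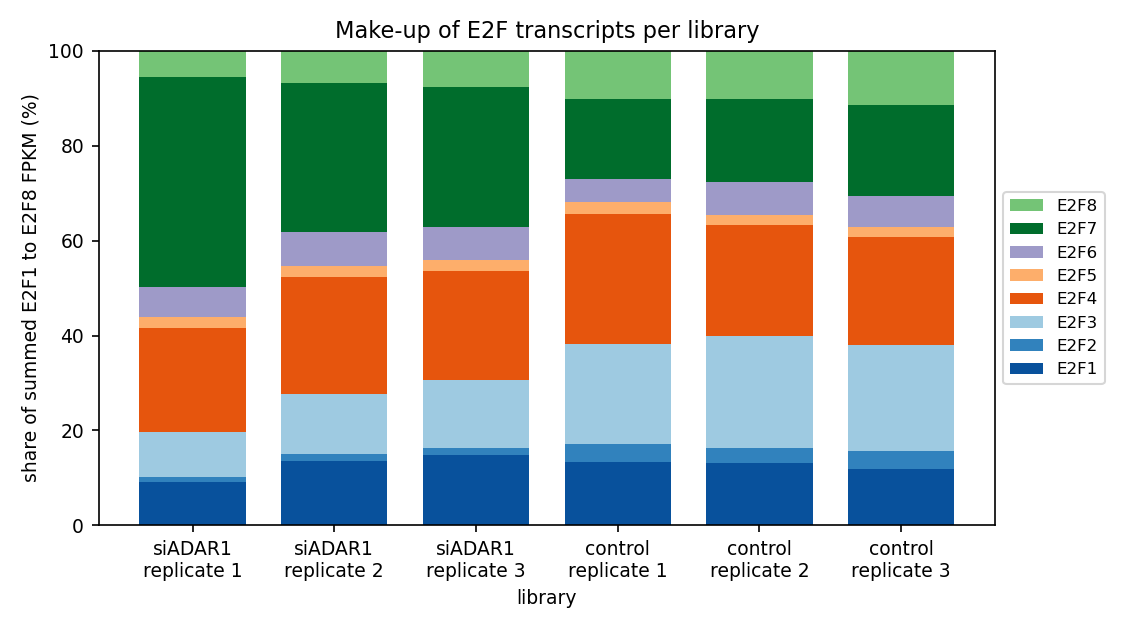
Share of the summed FPKM of E2F1 to E2F8 taken by each gene (stacked bars, percent) in each library, siADAR1 libraries left of control libraries. E2F7 takes 29.6 to 44.2% in siADAR1 and 16.8 to 19.2% in control, and E2F3 takes 9.45 to 14.4% in siADAR1 and 21.1 to 23.6% in control.

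The order of levels per gene length changed as well. In siADAR1 the highest member was E2F7 at 36.5 ± 11.6 FPKM, then E2F4 at 23.7 ± 1.22, E2F1 at 12.7 ± 2.1 and E2F3 at 12.4 ± 1.66 FPKM, and E2F1 and E2F3 overlapped. In control E2F4 at 29.9 ± 4.01 FPKM and E2F3 at 27.1 ± 0.797 FPKM overlapped at the top, above E2F7 at 21.6 ± 1.33 and E2F1 at 15.6 ± 1.18 FPKM (SD, n = 3 per group). Lower in the order, E2F6 and E2F8 overlapped in siADAR1, as did RBL1 and RBL2. In control RBL1 overlapped with E2F6, and E2F2 with RBL2. The ratio of E2F7 to E2F8 FPKM was 7.93, 4.7 and 3.86 in siADAR1, against 1.65, 1.74 and 1.68 in control, with no overlap. The ratio of E2F1 to E2F4 FPKM was 0.421, 0.548 and 0.645 in siADAR1, against 0.486, 0.568 and 0.525 in control, which overlapped.

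The partners of the E2F proteins included falls at TFDP1 and MYBL2. TFDP1, which encodes the DP1 partner needed by E2F1 to E2F6 for binding DNA, had 129, 140 and 146 CPM in siADAR1, against 260, 256 and 239 CPM in control (log2 fold change -0.87 ± 0.08, SE, edgeR adjusted p = 3.94e-06). TFDP2, the other DP gene tested, had a log2 fold change of 0.02 ± 0.10, and its sign turned without control replicate 1, without siADAR1 replicate 3 and without both libraries numbered 1. The MuvB core forms the DREAM repressor with p130 or p107 and E2F4 or E2F5. Of 7 genes for this core and its partners, 2 fell, 0 rose and 5 did not pass, with a median of -0.24. The share called was 28.6%, all lower, against 51.0% called and 25.0% lower over all tested genes. Only with library totals alone was 1 of them called higher. MYBL2, which encodes the B-Myb protein that replaces the repressor part in late S phase, fell by 0.91 (SE 0.09) on the log2 scale, and RBBP4, a histone-binding subunit, fell by 0.52 (SE 0.10). LIN9, LIN52 and LIN54, chosen after their values were seen, had log2 fold changes of -0.20, -0.28 and -0.24, none of which passed. LIN37 had only 2 to 22 counts per library and a log2 fold change of -0.15 ± 0.62 (SE), too few to judge. Of 12 E2F6 partners in a Polycomb complex, 4 rose and 4 fell, with a median of -0.23, and the share called was 66.7%. RYBP and YAF2, which encode related Polycomb subunits, rose by 1.44 ± 0.11 and 1.37 ± 0.13 (SE), and HDAC2, a histone deacetylase gene, fell by 0.89 (SE 0.09). Of 6 germline genes that E2F6 keeps silent in mouse, STAG3 alone could be tested, at 2.62 ± 0.661 CPM in siADAR1 and 2.49 ± 0.496 CPM in control (log2 fold change 0.08 ± 0.30, SE).

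Genes that act on the pocket proteins and on E2F stability moved as follows. All 7 tested genes for G1 cyclins and their kinases passed, 6 lower and 1 higher, with a median log2 fold change of -0.93. CCND1, which encodes cyclin D1, had 328, 377 and 344 CPM in siADAR1, against 1345, 1250 and 1309 CPM in control (log2 fold change -1.90 ± 0.08, SE, edgeR adjusted p = 1.47e-08). CDK6, a kinase partner of cyclin D, went the other way, at 371 ± 2.29 CPM in siADAR1 and 166 ± 24.6 CPM in control (SD, n = 3 each, log2 fold change 1.16 ± 0.10, SE). Of 6 tested CDK inhibitor genes, 2 rose and 2 fell, with a median of 0.07. CDKN2B, which encodes the p15 inhibitor of CDK4 and CDK6, rose by 1.61 ± 0.11 (SE), and CDKN1A, which encodes p21, by 0.70 ± 0.08. All 3 genes for ubiquitin ligase subunits that act on E2F proteins fell, with a median of -1.26. SKP2, whose product binds E2F1, fell by 1.41 (SE 0.11), and CCNF, whose product cyclin F targets activator and atypical E2Fs, fell by 1.26 (SE 0.12). These counts stand beside the shares of 26.0% higher and 25.0% lower over all genes.

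Genes known as E2F targets in G1/S, which members of this family activate or repress, fell in nearly every case. Among 31 tested genes 29 fell, 0 rose and 2 missed the threshold, and the median log2 fold change was -0.89. For this list and those below, the background over all tested genes was 25.0% lower and 26.0% higher, with a median of 0.00469. RRM2, a ribonucleotide reductase subunit, had 90.8, 98.6 and 96.6 CPM in siADAR1, against 314, 275 and 264 CPM in control (log2 fold change -1.58 ± 0.09, SE, edgeR adjusted p = 1.03e-07). PCNA, the replication clamp, fell by 1.46 (SE 0.09) and MCM4, a helicase subunit, fell by 1.45 (SE 0.08). Of 22 G2/M genes bound by DREAM, 20 fell, 0 rose and 2 did not pass, with a median of -1.07. PLK1, which encodes a kinase of mitosis, fell by 1.39 (SE 0.10), UBE2C, which encodes a ubiquitin-conjugating enzyme, fell by 1.27 (SE 0.10) and CCNA2, which encodes cyclin A2, fell by 1.09 (SE 0.08). Both medians lay below the log2 fold change of E2F1, at -0.30, and between those of E2F2 and RBL1. CCNE1, CCNE2 and CCNF each stand in 2 of these lists. These lists were drawn up with earlier results of these data known, so their direction is a description. In bulk RNA, fewer cells in a phase of the cycle and less RNA per cell cannot be told apart. Of 7 apoptosis genes reported as E2F1 targets, 4 rose and 3 fell, with a median of 0.37. Over the alternatives 3 or 4 rose and 1 to 3 fell, with 2 lower under most of them. The count lower was 1 without siADAR1 replicate 2 and on FPKM with a pseudocount of 1 and no filter. BBC3, which encodes PUMA, rose by 1.85 ± 0.17 (SE) and PMAIP1, which encodes NOXA, by 1.55 ± 0.12. APAF1, chosen after its values were seen, was among the 3 that fell, by 1.02 (SE 0.13).

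**Figure D4:**
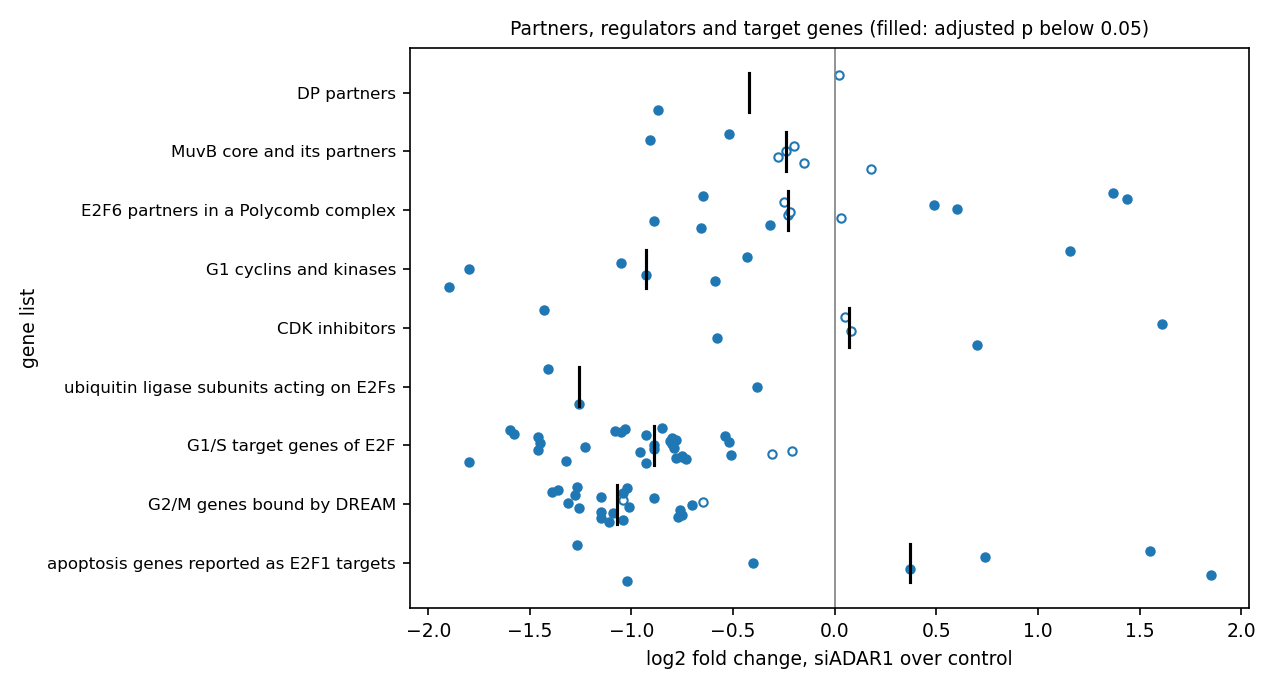
Log2 fold change, siADAR1 over control, of each tested gene (points, filled where the edgeR adjusted p is below 0.05) in 9 lists of E2F partners, regulators and target genes, with the list median as a black bar. The G1/S and G2/M target lists lie wholly below 0, with medians of -0.89 and -1.07, while Polycomb partners, CDK inhibitors and apoptosis genes fall on both sides.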

How the data were processed

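Polyadenylated RNA was sequenced in 3 siADAR1 and 3 control samples, grouped and numbered by their titles. The authors deposited raw counts per gene and FPKM per library, per the file headers. The submitters' processing notes name CASAVA, fastp and HISAT2 2.0.5, without role or order. No counting tool, build or annotation is stated in them. The coordinates of all 58735 genes equalled those of GENCODE release 29 on GRCh38. The deposited FPKM carry a library factor of 1.05 to 1.06 of the count total in siADAR1 and 0.966 to 0.97 in control. FPKM served for levels between genes and as an alternative, and 0 columns were left without a sample.

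The count test used edgeR 4.0.16 in R 4.3.3: filterByExpr with a minimum count of 10, TMM factors (1.04 to 1.05 in siADAR1, 0.957 to 0.963 in control), and a two-sided robust quasi-likelihood F test on group. P-values were adjusted by Benjamini-Hochberg over 15294 genes at a threshold of 0.05. The SE is the size of the log2 fold change over the square root of F. The test was also run on simulated counts in which only a small part of the genes changed, in either direction. Those counts could not check scaling or false calls under a change as broad as the present one. Replicates of a group were further apart than counting noise allows (chi-square per degree of freedom 3.95 to 18). In all, 17 alternatives were run, with limma 3.58.1 and DESeq2 1.42.0 among the tools. Named genes were all members, ADAR, and the 3 genes of smallest p in each context list (2 where under 10 were tested). The members, lists and rules were chosen with earlier results of these data known. Promoters came from RefSeq (GRCh38.p14), matched by symbol for 8 of 10 members.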

Additional observations from a re-analysis of the deposited data

How the results depend on the processing

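The count of members called was 4 to 7 over the 17 alternatives, against 6, and the count over all genes was 5879 to 8582, against 7804. E2F2, E2F3, E2F8 and RBL1 passed in the same direction under all 17, with log2 fold changes of -1.75 to -1.17, -1.22 to -1.01, -0.989 to -0.803 and -0.9 to -0.59. E2F7 stayed higher under all 17, at 0.446 to 0.911, and lost its call without control replicate 1 (adjusted p = 0.0722) and on FPKM with a pseudocount of 1 and no filter (adjusted p = 0.0688), where the count of members that rose was 0. E2F4 stayed lower, at -0.4 to -0.212, and lost its call under 3 alternatives, the third being FPKM with a pseudocount of 1 and no filter (adjusted p = 0.0809). The cause of these losses was not tested. Scaling by library totals alone raised the median log2 fold change over all genes by 0.117, called 4892 genes higher and 2887 lower, against 3973 and 3831, and turned E2F6 to 0.0183. TFDP2, at -0.0205 to 0.057 with 1 library left out, turned to -0.0205 without control replicate 1, to -0.0111 without siADAR1 replicate 3 and to -0.00133 without both libraries numbered 1, and STAG3, at -0.149 to 0.2 with 1 library left out, turned to -0.0921 without control replicate 1 and to -0.149 without siADAR1 replicate 2. The activator minus repressor difference ran between -1.0 without siADAR1 replicate 3 and -0.68 without both libraries numbered 1. Libraries with the same number were not paired in the main fit, since no label pairs them. Their deviations from group means correlated at 0.251, 0.0844 and 0.106 for numbers 1, 2 and 3. Pairs of a library numbered 1 with one numbered 2 or 3 correlated at -0.169 to -0.13. Pairs of a library numbered 2 with one numbered 3 correlated at 0.0917 and 0.0668. Whether libraries with the same number share an effect was not tested. With the replicate number as a block 8582 genes and 7 members were called, E2F1 among them at -0.311 (adjusted p = 0.0334). E2F2 rested on 119 to 126 counts in each siADAR1 library.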
